A study of Mus musculus with 6 samples.

Results

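The SLC25 family of mitochondrial solute carriers was followed in mouse small intestine after loss of Fitm2, which encodes FIT2, an endoplasmic reticulum protein with a role in making lipid droplets. Members were the genes whose symbol starts with Slc25a. Of 47 such genes in the reference gene table, 44 had a probe set with 1 annotated gene on the array. For 38 of the 44 the brightest probe set lay above the intensity filter, and these 38 are described here out of 13042 genes that passed it. That filter sat at the 40th percentile of mean brightness on the array, which is log2 5.28 or an intensity of 38.9. Just inside it lay Slc25a48, with a mean log2 of 5.33, and just outside Slc25a27, at 4.88. Slc25a2, Slc25a18, Slc25a31, Slc25a41 and Slc25a54 were also below it, and 3 genes of the family had no probe set here.

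Carriers of this family are proteins of the inner mitochondrial membrane, apart from a few found in the outer membrane or in peroxisomes. They exchange metabolites, nucleotides, cofactors and ions between the cytosol and the matrix, which the membrane itself does not let through. In absorptive cells of the small intestine they connect respiration with the export of citrate, the use of glutamate and the making of citrulline from glutamine and ornithine.

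All mice received tamoxifen, at 100 µg per g body weight into the peritoneum on days 1, 2 and 3; whether mice killed on day 2 or 3 were given the later doses is not stated in the labels. The control genotype was labelled L/L, a term that the labels do not explain and that commonly stands for alleles flanked by loxP sites. The deletion genotype, KO, was ROSA26CreERT2 L/L: it held the same alleles plus a tamoxifen-activated Cre recombinase expressed from the ROSA26 locus, which is active in most cell types and not in the intestine alone. L/L mice are not described as carrying Cre, so Cre and loss of Fitm2 cannot be told apart. Sex, strain and age are not given in the labels. The entire small intestine, flushed, was collected on day 2, 3 or 5. The study has 6 arrays, each of pooled RNA: the L/L pools held 6, 6 and 8 mice and the KO pools 7, 6 and 7, in the order of the days.

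The number of arrays limits all that follows: a genotype has 1 array on each day, and a difference on a single day has no test. Values are listed in the order day 2, day 3, day 5. For Fitm2 they were 193, 223 and 211 for L/L against 123, 127 and 120 for KO, and the sources used here do not say whether its probe set lies in the deleted part. The median intensity of an array lay between 57.7 and 59.7. The enterocyte markers bore out the labelled tissue, with a summed intensity between 164129 and 174604 on the 6 arrays. Of 10 listed, 9 were measured and all of these lay above the filter, while Sis had no probe set with 1 annotated gene. Differences are given throughout as log2 intensity in KO minus L/L.

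The median of the family lay near 0 on each day. The 38 members had a median difference of 0.01 at the first time point (range -0.20 to 0.14), -0.03 at the next (-0.34 to 0.20) and -0.02 on day 5 (-0.53 to 0.59), against medians of 0.01, -0.01 and 0.02 over all genes. Centring each array on its median shifts all genes of an array alike, and the day 5 medians were then -0.09 for the family and -0.05 for all genes. On day 5, 20 members were lower in KO and 18 higher, beside 5991 and 7038 of all 13042 genes. The carriers furthest apart on that day were Slc25a37, Slc25a42, Slc25a16, Slc25a11, Slc25a15 and Slc25a39, which were lower in KO, and Slc25a22, Slc25a33, Slc25a28, Slc25a32, Slc25a47 and Slc25a13, which were higher. The interquartile range of the members' differences was 0.11, 0.18 and 0.29 by day, and over all genes 0.13, 0.20 and 0.32.

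**Figure D1:**
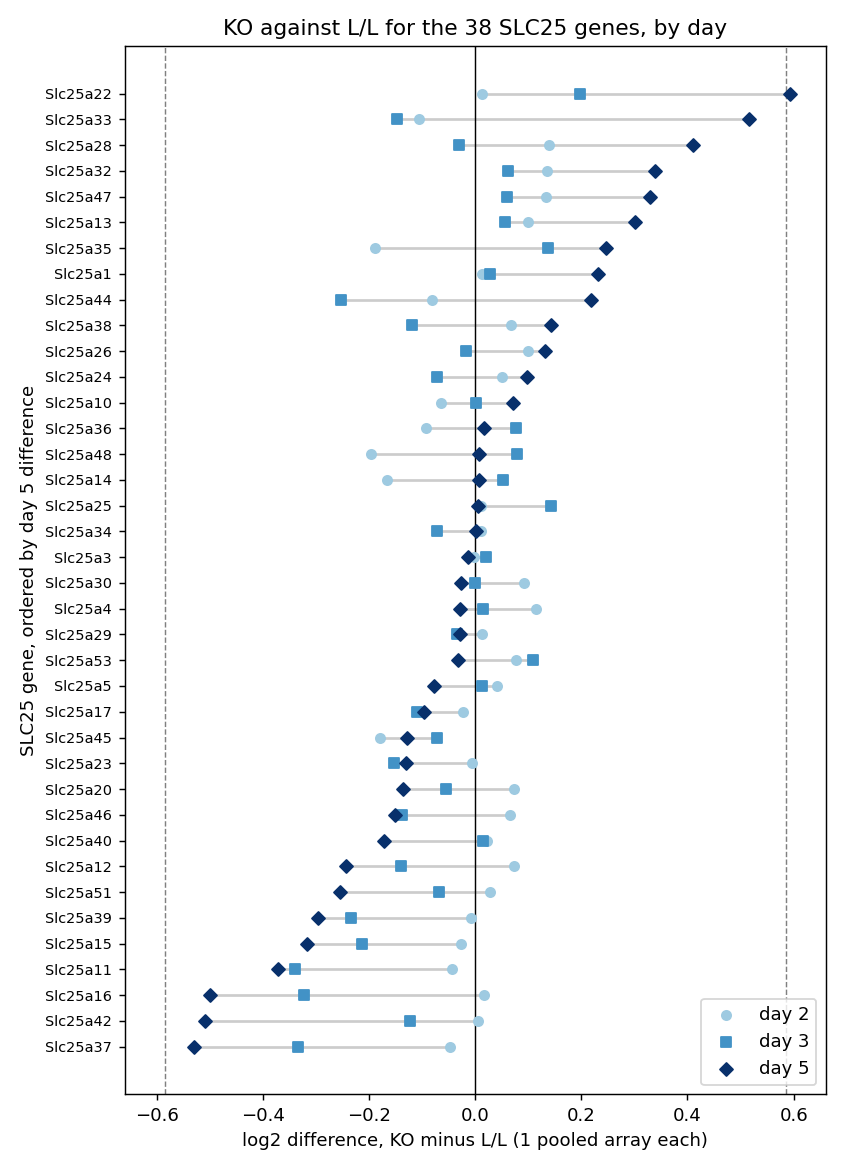
Each row is 1 of the 38 SLC25 genes, ordered by its day 5 difference, and the points give the log2 difference between 1 KO and 1 L/L pooled array on day 2, 3 and 5; dashed lines mark 1.5-fold. The day 2 points lie between -0.20 and 0.14, and the day 5 points between -0.53 for Slc25a37 and 0.59 for Slc25a22.

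No member passed either test across all genes. Over the 3 days, limma called 0 of 38 members at an adjusted p under 0.05, where 0.023% of all genes were called. At an unadjusted p under 0.05 there were 2 members, Slc25a11 and Slc25a37, or 5.26% of the family beside 12.3% of all genes. For the change of the difference with day, limma called 0 of 38 members where 1.23% of all genes were called. Here 5 members had an unadjusted p under 0.05, Slc25a16, Slc25a22, Slc25a33, Slc25a37 and Slc25a42, or 13.2% beside 18.4% of all genes. A p that misses the threshold in 6 arrays does not show that a carrier was the same in both genotypes.

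Counts by size and sign are likewise to be read against those of all genes, and a share near that background is no result about the carriers. No member differed 1.5-fold on day 2, when 0.107% of all genes were that much lower and 0.429% higher, or on day 3, when the shares were 0.506% and 1.1%. On day 5 Slc25a22 alone was 1.5-fold higher and none was 1.5-fold lower, beside 5.19% and 3.1% of all genes. With median centring 0 members were higher and 1 lower, beside 3.87% and 4.19% of all genes. At a difference of 0.32 or more (log2) on day 5, 4 members were lower (10.5% of the family, 9.82% of all genes) and 5 higher (13.2%, against 15.5%). The difference was negative on all 3 days in 7 members (18.4%, against 17.4%) and positive on all 3 in 6 (15.8%, against 22.1%). With median centring these were 11 members (28.9%, against 24.8%) and 3 (7.89%, against 17.2%). All KO arrays lay below all L/L arrays for Slc25a37 and Slc25a39 (5.26% of the family, 5.66% of all genes). They lay above for Slc25a13, Slc25a22 and Slc25a47 (7.89% and 7.48%).

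Pools of L/L mice alone also differed between days. From day 2 to day 5 the median absolute change of a member was 0.22 within L/L and 0.23 within KO, against 0.15 between the genotypes on day 5. Over all genes these values were 0.14, 0.16 and 0.16. From day 2 to day 3 the L/L value was 0.12 for the members and 0.12 for all genes.

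Most carriers of adenine nucleotides, phosphate and coenzyme A were close to L/L in KO, with a median of -0.05 on day 5. Of 8 measured, 6 were lower and 2 higher on that day, beside 5991 and 7038 of all 13042 genes. Slc25a4 and Slc25a5 encode the ADP/ATP exchangers ANT1 and ANT2, and Slc25a3 the phosphate carrier that supplies ATP synthase. Slc25a5 had intensities of 18629, 18639 and 17087 for L/L against 19178, 18800.3 and 16201 for KO, differences of 0.04, 0.01 and -0.08. Slc25a4 stood at 1503, 1662 and 2084 for L/L against 1628, 1678 and 2044 for KO, with a mean difference of 0.03 ± 0.07 (SD over 3 days). For Slc25a3 the values were 9677, 10010.4 and 7343 for L/L against 9668, 10155 and 7277 for KO. In each of these 3 genes the L/L and KO ranges overlapped, and day 5 differed from day 2 in the same direction in both genotypes, for Slc25a3 by -0.40 in L/L and -0.41 in KO and for Slc25a4 by 0.47 and 0.33.

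Slc25a5 had 8 probe sets above the filter, all lower in KO on day 5, with differences from -0.08 for the brightest to -0.40. Of the 8, 6 are of a type that can bind several transcripts, and a processed copy of the gene, Slc25a5-ps, is in the reference table, so signal from the 2 cannot be separated here. Slc25a24, a calcium-regulated carrier of ATP-magnesium and phosphate, had 4672, 4931 and 5305 for L/L against 4839.9, 4691 and 5677 for KO, with no order between the genotypes. Its dimmer probe set differed by -0.14 on day 5 where the brighter one differed by 0.10. Its relatives Slc25a23 and Slc25a25 had mean differences of -0.10 and 0.05, and the peroxisomal carrier Slc25a17 -0.08.

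Slc25a42, which carries coenzyme A into the matrix, was the lowest of this group. Its intensities were 172, 191 and 176 for L/L against 173, 175 and 124 for KO. The genotypes were level on day 2, and on day 5 KO was lower by 1.42-fold (-0.51; change with day -0.17 per day, SE 0.05, adjusted p = 0.14). A second, dim probe set went the other way, with 38.3 for L/L and 49.6 for KO (0.37 on day 5), so the 2 probe sets of this gene disagree, and their mean differed by -0.07 on day 5. Slc25a16, linked to coenzyme A supply and placed here in the cofactor group, had 244, 285 and 329 for L/L against 247, 228 and 233 for KO. From day 2 to day 5 L/L differed by 0.43 and KO by -0.09, which leaves a day 5 difference of -0.50 (mean -0.27 ± 0.26 SD, adjusted p = 0.41).

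**Figure D2:**
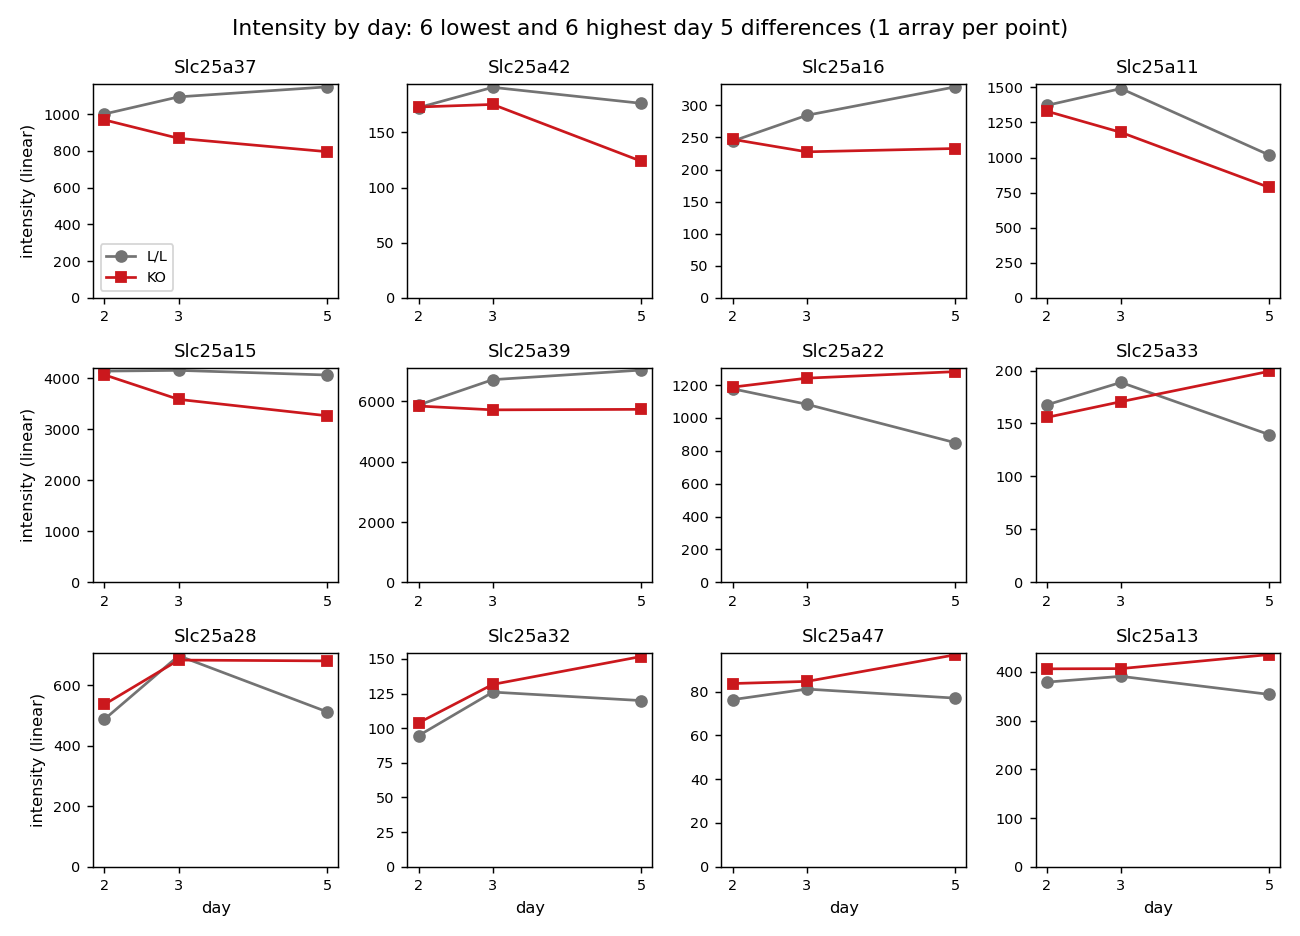
Linear intensity against day for the 6 members with the lowest day 5 difference (first 6 panels) and the 6 with the highest, with L/L in grey circles and KO in red squares, 1 pooled array per point. In most panels the genotypes lie close together on day 2 and apart on day 5. The gap on day 5 follows from choosing the panels by their day 5 difference. In the Slc25a22 panel it is the L/L line that is lower on day 5 (849.5) than on day 2 (1178).

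Carriers of di- and tricarboxylates and of aspartate and glutamate differed in both directions. Of 6 measured, 4 were higher in KO on day 5 and 2 lower, beside 7038 and 5991 of all 13042 genes. The group medians were 0.01, 0.02 and 0.15 by day. Slc25a22, a carrier that brings glutamate into the matrix together with a proton, had the highest day 5 difference of the family. Its intensities were 1178, 1083 and 849.5 for L/L against 1188, 1242 and 1282 for KO, and every KO array lay above every L/L array. On day 5 KO was 1.51-fold higher, with differences of 0.01, 0.20 and 0.59 by day. From day 2 to day 5 the difference was -0.47 within L/L and 0.11 within KO, so L/L contributed most of the gap. The change with day was 0.19 per day (SE 0.05) and did not pass (adjusted p = 0.117), the lowest adjusted p in the family for that test. It passed narrowly with an offset of 32 before log2 (adjusted p = 0.047) and with an intensity-dependent prior (adjusted p = 0.046), in a range of adjusted p from 0.046 to 0.262 over the alternatives.

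Slc25a11, the exchanger of oxoglutarate and malate that works in the malate-aspartate shuttle, went the other way. It had 1372, 1492 and 1017 for L/L against 1331, 1179.7 and 787 for KO, differences of -0.04, -0.34 and -0.37. Both genotypes were lower on day 5 than on day 2 (-0.43 within L/L and -0.76 within KO), and their ranges overlapped (mean -0.25 ± 0.18 SD, adjusted p = 0.394). Slc25a12 and Slc25a13, the paired aspartate/glutamate exchangers of the same shuttle (aralar and citrin), differed in sign on day 5. Slc25a12 had 259.8, 328 and 269 for L/L against 273, 298 and 227 for KO, and its second probe set gave -0.17 on day 5 beside -0.24. Slc25a13 had 379, 391 and 354 for L/L against 407, 407 and 436 for KO, with all 3 KO arrays above all 3 L/L arrays and a mean of 0.15 ± 0.13 SD (adjusted p = 0.434). The difference between the 2 genes was not tested.

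Slc25a1 exports citrate, the carbon source of cytosolic lipid synthesis. Its intensities were 1379, 1542 and 1067 for L/L against 1391, 1573 and 1252 for KO, level on days 2 and 3 and 0.23 apart on day 5, when both genotypes were at their lowest. Slc25a10, the dicarboxylate carrier, had 1499, 1501 and 1097 for L/L against 1434, 1503 and 1152 for KO and a mean difference of 0.00. Its second probe set differed by 0.38 on day 5. In L/L, 5 of the 6 carriers of this group were lower on day 5 than on day 2, with a median change of -0.40. In KO 4 were, with a median of -0.21. Of all 13042 genes, 6729 were lower on day 5 than on day 2 in L/L and 6461 in KO. The all-gene medians were -0.007 and 0.002.

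**Figure D3:**
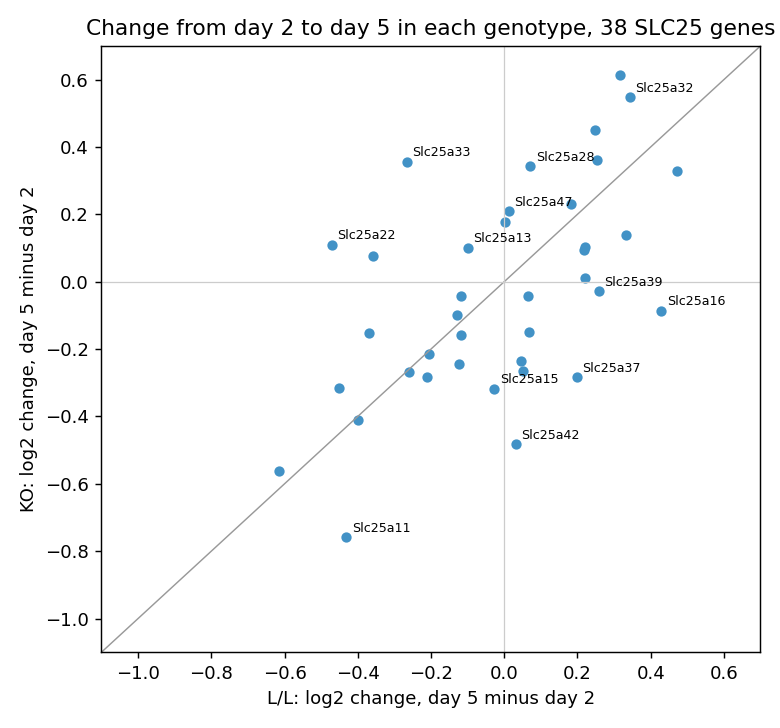
Each point is 1 of the 38 SLC25 genes, with the log2 change from day 2 to day 5 in L/L on the horizontal axis and in KO on the vertical axis; the diagonal marks equal change, and the 12 genes with the lowest and highest day 5 differences are named. Slc25a22 (L/L -0.47, KO 0.11) and Slc25a33 (L/L -0.27, KO 0.36) lie far above the diagonal, and Slc25a16 and Slc25a42 far below.

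Among carriers of amino acids, ornithine and carnitine, Slc25a15 moves ornithine and citrulline across the inner membrane, a step of citrulline synthesis in the gut. It had 4136, 4151 and 4059.8 for L/L against 4063, 3582 and 3262 for KO. In this probe set L/L was nearly even while KO was lower on each later day, with differences of -0.03, -0.21 and -0.32 (mean -0.18 ± 0.15 SD, adjusted p = 0.412). A second probe set read 1258, 1234 and 886 for L/L against 1255, 1193 and 653 for KO, so there L/L was lower on day 5 too, with a day 5 difference of -0.44. The L/L and KO ranges of the brighter one overlapped only through KO day 2.

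Genes of 7 of 8 enzymes around that carrier were lower in KO on day 5, beside 5991 of all 13042 genes. Of 12 citrulline and ornithine enzymes considered, 8 were measured, and their median differences were -0.10, -0.19 and -0.70 by day. On all 3 days 6 of the 8 were lower and 1 higher, beside 17.4% and 22.1% of all genes. The list was chosen with earlier results of these data known. Otc, the matrix enzyme that makes citrulline from ornithine, had 3371, 3105 and 3829.8 for L/L against 3034, 2395 and 1468 for KO. Arg2, the mitochondrial arginase, had 7298, 6916 and 7246 for L/L against 6730.0, 5429 and 3228 for KO. Both fell with day relative to L/L in limma, Otc with a slope of -0.42 per day (SE 0.05, adjusted p = 0.043) and Arg2 with -0.36 (SE 0.05, adjusted p = 0.045), where 1.23% of all genes were called. With no intensity filter limma called 0 genes for this change, these 2 included. Aldh18a1, which starts ornithine synthesis from glutamate, differed by -0.14, -0.44 and -0.67 (adjusted p = 0.162 for the change with day). Asl, which acts after citrulline, was the 1 member higher on each day (mean 0.17). Slc25a15 itself had a change with day of -0.09 (SE 0.05, adjusted p = 0.391).

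Slc25a20, which exchanges acylcarnitine for carnitine and so feeds fatty acid oxidation, had 1565, 1680.4 and 1823 for L/L against 1646, 1618 and 1660.1 for KO and differences of 0.07, -0.05 and -0.14. A second probe set gave 0.09, -0.04 and -0.17, close to the first. Of the carnitine system, 5 of 6 genes were measured with medians of 0.02, -0.10 and -0.17. Cpt2, the matrix enzyme that takes over from Slc25a20, differed by 0.02, -0.20 and -0.57 (adjusted p = 0.118 for the change with day), Cpt1a by -0.25 on average and the plasma membrane carnitine transporter Slc22a5 by 0.25. None of the 5 passed either test.

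Of the other carriers of this group, Slc25a47 had 76.3, 81.2 and 77.0 for L/L against 83.7, 84.7 and 96.8 for KO, with all KO arrays above all L/L arrays and a day 5 difference of 0.33 (mean 0.17 ± 0.14 SD, adjusted p = 0.415). Slc25a45 had 1824, 1532 and 1192 for L/L against 1611, 1458 and 1091 for KO, lower in KO on all 3 days with differences of -0.18, -0.07 and -0.13, and both genotypes were lower on day 5 than on day 2 (-0.61 within L/L and -0.56 within KO). Slc25a29, a carrier of basic amino acids, Slc25a38, which brings glycine for heme synthesis, and Slc25a48 had means of -0.02, 0.03 and -0.04. Slc25a44, a carrier of branched-chain amino acids, turned from -0.25 on day 3 to 0.22 on day 5 in its brightest probe set, and its other 2 gave 0.01 and -0.36 on day 5.

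Carriers of cofactors, nucleotides, glutathione and folates were 4 lower and 4 higher on day 5, beside 5991 and 7038 of all 13042 genes. Slc25a39, with Slc25a40 an importer of glutathione into mitochondria, was among those that were lower, as was Slc25a16 above. Its brightest probe set had 5882, 6723 and 7041 for L/L against 5848, 5721 and 5738 for KO, so L/L was higher on days 3 and 5 than on day 2 (0.26 from day 2 to day 5) and KO was not (-0.03). All KO arrays lay below all L/L arrays, though the day 2 difference was only -0.01.

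The 3 other probe sets of Slc25a39 above the filter had larger day 5 differences, of -0.42, -0.51 and -0.89. The dimmest of them read 386, 418 and 527 for L/L against 374, 301 and 285 for KO. All 4 were thus lower in KO on each day, and the brightest, which the rule selects, gave the smallest difference (mean -0.18 ± 0.15 SD, adjusted p = 0.417). All but the probe set with -0.51 are of a type that can bind several transcripts. In that one the genotypes overlapped, with 971, 1096 and 789 for L/L against 967, 984 and 556 for KO. Slc25a40 differed by 0.02, 0.01 and -0.17.

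Slc25a32 and the pyrimidine nucleotide carriers Slc25a33 and Slc25a36 serve one-carbon metabolism and mitochondrial nucleic acid synthesis. Slc25a32, the folate carrier, had 94.6, 126 and 119.9 for L/L against 104, 132 and 152 for KO, higher in KO on each day with overlapping groups (mean 0.18 ± 0.14 SD, adjusted p = 0.414), and its second probe set was higher on each day too, by 0.16, 0.12 and 0.21. Slc25a33 had 168, 189 and 139 for L/L against 156, 171 and 199 for KO. It was lower in KO on days 2 and 3 and 1.43-fold higher on day 5, so its mean of 0.09 hides opposite signs, and its change with day was 0.22 per day (SE 0.06, adjusted p = 0.14). Slc25a36 had 2049, 2140.4 and 2442 for L/L against 1922, 2258 and 2469.6 for KO, with a mean of 0.00.

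Of the mitochondrial folate enzymes, 5 of 6 were measured, with medians of 0.23, 0.23 and 0.08. Mthfd1l, which makes formate from the one-carbon units, differed by 0.46, 0.63 and 0.15. Mthfd2 and Mthfd2l, which act just before it, averaged 0.23 and -0.25, and none of the 5 passed either test. Slc25a51, which carries NAD, had 2433, 2519 and 2514 for L/L against 2479, 2403 and 2106 for KO; it differed by -0.26 on day 5, with -0.10 and -0.01 in its other probe sets. Slc25a26, the carrier of S-adenosylmethionine, had 0.13 and -0.26 on day 5 in 2 probe sets.

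The mitoferrins Slc25a37 and Slc25a28 bring iron into the matrix for heme and iron-sulphur clusters, and they lay on opposite sides. Slc25a37 (mitoferrin-1) had 1002, 1095 and 1149 for L/L against 969, 869 and 796 for KO. L/L was higher on each later day and KO lower, no array of one genotype reached into the other, and the differences were -0.05, -0.33 and -0.53, the last a 1.44-fold lower level in KO. The mean of -0.30 ± 0.24 SD was the lowest of the family and did not pass (adjusted p = 0.394). Slc25a28 (mitoferrin-2) had 488, 698 and 513 for L/L against 537, 684 and 681 for KO, differences of 0.14, -0.03 and 0.41 and overlapping groups. The 2 genes thus stood -0.53 and 0.41 from L/L on day 5, each from a single probe set, and the difference between them was not tested. Of 13 heme and iron-sulphur genes, 10 were measured, with medians of -0.01, -0.08 and -0.11. On all 3 days 4 of the 10 were lower and 0 higher, beside 17.4% and 22.1% of all genes. Cpox and Abcb10, an enzyme of heme synthesis and an inner membrane transporter, averaged -0.27 and -0.19, with Alad at -0.17, and none of the 10 passed.

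The remaining carriers had means close to 0, some from differences of opposite sign. The uncoupling-protein-like Slc25a14 and Slc25a30 had means of -0.04 and 0.02, though the 2 dimmer Slc25a30 probe sets were 0.29 and 0.39 higher in KO on day 5 where the brightest gave -0.03. Slc25a46, an outer membrane protein tied to mitochondrial dynamics, averaged -0.07, and Slc25a34 and Slc25a53 averaged -0.02 and 0.05. Slc25a35 went from lower to higher in KO, with differences of -0.19, 0.14 and 0.25 and a change with day of 0.13 per day (SE 0.05, adjusted p = 0.273). Family proteins under other symbols included Mtch2, an outer membrane insertase, at -0.08, -0.09 and -0.42, Mtch1 at a mean of 0.06 and Ucp3, an uncoupling protein, with a mean close to 0, none of which passed.

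Agreement between probe sets gives a second reading of each difference. Of the 38 members, 19 had more than 1 probe set above the filter, and in 11 of these the day 5 differences had 1 sign. They agreed for Slc25a15, Slc25a32 and Slc25a39, and not for Slc25a42, Slc25a44, Slc25a24, Slc25a26, Slc25a29, Slc25a3, Slc25a30 and Slc25a36, of which Slc25a36 spanned only -0.01 to 0.02. Slc25a11, Slc25a13, Slc25a16, Slc25a22, Slc25a28, Slc25a33, Slc25a37 and Slc25a47 rest on 1 probe set each. That of Slc25a47 is of a type that can bind several transcripts.

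**Figure D4:**
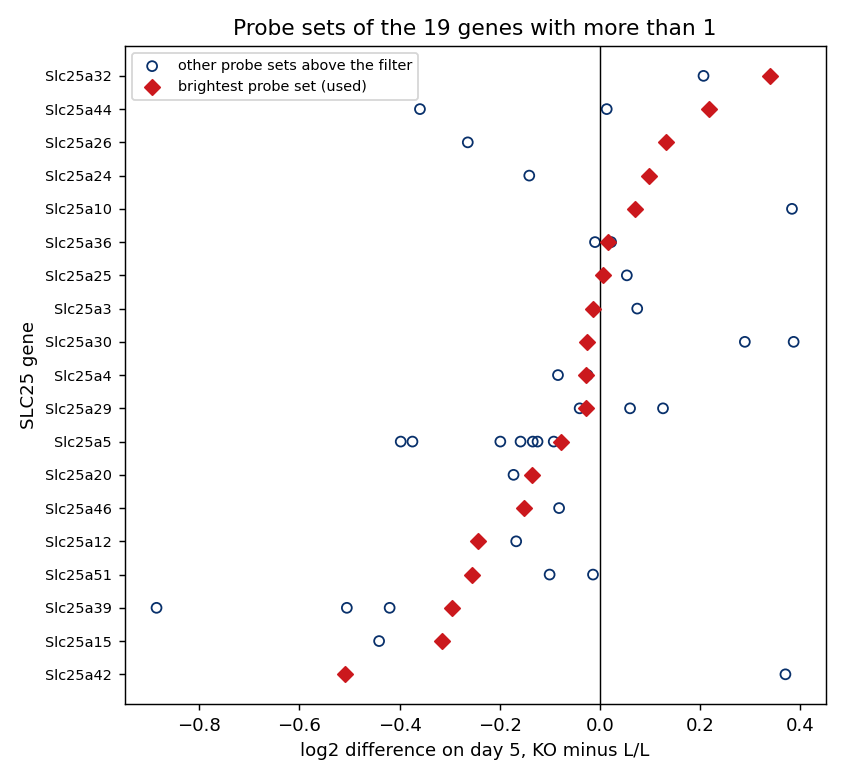
Log2 difference on day 5, KO minus L/L, for each probe set above the filter in the 19 SLC25 genes that have more than 1; red diamonds are the brightest probe set, used for the gene, and open circles the others. The 4 probe sets of Slc25a39 lie between -0.89 and -0.30, and the 2 of Slc25a42 at -0.51 and 0.37.

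The differences of the carriers can be set beside those of other mitochondrial genes. Of 25 respiratory chain and ATP synthase genes considered, 24 were measured, and all 24 were lower in KO on day 5, with medians of -0.03, -0.12 and -0.41; Cyc1 and Uqcrfs1 of the cytochrome bc1 complex and Ndufs1 of NADH dehydrogenase averaged -0.32, -0.31 and -0.32 over the 3 days. Of the 38 carriers 20 were lower on that day, with a median of -0.02, and of all 13042 genes 5991 were, with a median of 0.02. No carrier and no respiratory chain gene passed either test, and the difference between these 2 lists was not tested. The respiratory chain list holds only some genes of these complexes and was chosen with earlier results of these data known. The pyruvate carrier and porin list had medians of 0.01, -0.14 and -0.27 over 4 of 5 genes, with means of -0.17 for Vdac1 and -0.17 for Vdac3, porins of the outer membrane, and -0.12 for Mpc1, a subunit of the pyruvate carrier.

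Genes of the TIM22 route, which inserts carriers into the inner membrane, had medians of 0.06, -0.04 and -0.13 over 10 genes, and its small Tim subunits Timm10b, Timm10 and Timm8b averaged 0.14, 0.12 and -0.09. The calcium uniporter list had 0.04, 0.02 and 0.06 over 5 of 7, with means of 0.22 for the uniporter regulator Micu3, -0.12 for the ion exchanger Letm1 and 0.09 for the uniporter subunit Smdt1. Enzymes of the malate-aspartate shuttle and citrate use had 0.05, -0.06 and -0.10 over 7, with the cytosolic malic enzyme Me1 at 0.11, -0.81 and -0.82 by day. ATP-citrate lyase (Acly) and citrate synthase (Cs) averaged 0.10 and -0.05. Regulators of mitochondrial genes had 0.01, -0.12 and -0.17 over 11, with means of 0.42 for the transcription factor Myc, -0.40 for the coactivator Ppargc1b and -0.37 for the nuclear receptor Esrrg. None of these genes passed either test.

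**Figure D5:**
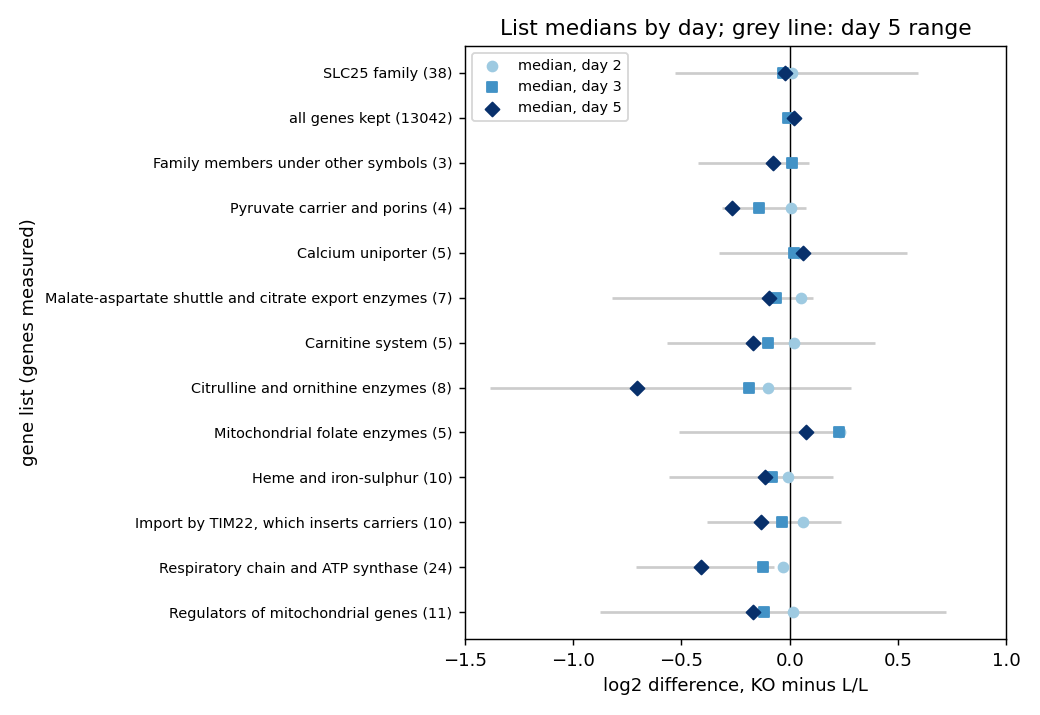
Median log2 difference, KO minus L/L, on day 2, 3 and 5 for the 38 SLC25 genes, all 13042 genes and 11 lists of mitochondrial genes; the grey line spans the lowest to the highest gene of a list on day 5, and the number measured is in brackets. The day 5 median is -0.02 for the carriers, -0.41 for the respiratory chain and -0.70 for citrulline and ornithine enzymes.

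Markers of several cell types also differed with genotype on the same arrays. In whole tissue, fewer cells of a type and less RNA per cell cannot be told apart. The summed intensity of 7 crypt stem and cycling cell markers was 9184, 8916 and 9826 for L/L against 9299, 7909 and 4134 for KO. Olfm4 made up most of the day 5 gap: the other 6 markers summed to 3207, 3801 and 3765 for L/L against 3307, 3271 and 2589.5 for KO, and on day 5 Smoc2 and Ascl2 differed by -0.07 and 0.15. For 7 myeloid markers it was 2934, 2673 and 2256 for L/L against 3162, 3608 and 4854 for KO. On day 5, 6 of 7 crypt markers were lower and 7 of 7 myeloid markers higher in KO, beside 5991 and 7038 of all 13042 genes. The test of change with day called 1 crypt and 2 myeloid markers, where 1.23% of all genes were called. Enterocyte markers had a day 5 median difference of 0.02.

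Paneth cell, enteroendocrine, fibroblast, endothelial and smooth muscle markers had day 5 medians of 1.03, 1.02, 0.50, 0.58 and 0.27. Of the 7 enteroendocrine markers, 4 passed the test of change with day, each rising in KO relative to L/L, where 1.23% of all genes were called. From day 2 to day 5 the median change of the 7 was -0.54 within L/L and 0.25 within KO. Goblet cell markers stood at 0.12 and T and B cell markers at -0.21. Of tissues that lie against the gut, defining markers below the filter were Ucp1 of brown fat, Alb of liver, and Myh1 and Myh4 of skeletal muscle. Adipocyte markers above it (Adipoq, Cidea, Fabp4) had a day 5 median of 0.56, hepatocyte markers (Apoh, Ttr) 0.32, skeletal muscle markers (Acta1, Ckm) 0.15 and pancreatic acinar markers (Cela1, Cpa1, Prss2) 0.27. The part of any of these cells in the carriers' differences was not tested.

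Neither of 2 motifs searched for was common in the promoters of the carriers. RefSeq windows on GRCm38.p6, 250 bases before to 50 after a start site, matched 31 of the 38 members. The letters AAGGTCA, bound by estrogen-related receptors, were found on either strand in 1 of the 31 (3.23%), in Slc25a34, against 4.13% of 10474 genes with such a window that passed the filter. GCATGCGC, part of the site of NRF1, was found on either strand in 0 of the 31, against 5.51% of those genes. The absence of these letters from the window says nothing of whether either factor acts on a carrier gene.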

How the data were processed

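Small intestines of mice were pooled by genotype and day, and each pool was hybridised to 1 Affymetrix mouse array. The deposited table holds 1 linear intensity per probe set (3.82 to 31146); the submitters' processing notes name Partek and RMA without versions, and the sources used here do not give the order of those steps. Log2 was taken here, with no pseudocount. Of 45101 probe sets, 64 controls were left out, 34945 had 1 annotated gene, 932 had several and 9160 were not listed. For 34741 probe sets with 1 gene, the symbol was taken from the GRCm38.p6 gene table through the gene ID, whether or not it changed. The brightest probe set stood for a gene, and 13042 of 18193 genes passed the filter at the 40th percentile.

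limma 3.58.1 (R 4.3.3) fitted genotype with day as a factor (2 residual degrees of freedom before moderation) and, for the change with day, the 3 daily differences against day (1). Its p-values, Benjamini-Hochberg adjusted over all genes, measure only the spread between days, moderated by a prior variance drawn from all genes. That prior had 3.03 degrees of freedom for the 3-day fit and 4.76 for the change with day. The fits were tested on simulated data. Members and gene lists were chosen with earlier results of these data known. Named in full were 15 carriers of well known function, the 6 lowest and 6 highest day 5 differences and the 4 lowest and 4 highest means; of each partner list, the 3 largest mean differences, and Asl was added after its values were seen. Alternatives changed the filter, probe set rule, offset, scaling, prior and days.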

Additional observations from a re-analysis of the deposited data

How the results depend on the processing

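Median centring gave 1 member 1.5-fold lower and 0 higher on day 5, 7 lower and 3 higher by 0.32 (log2) or more, 11 lower and 3 higher on all 3 days, and 4 with all KO arrays below L/L; the median difference on day 5 was -0.0903 and the KO change from day 2 to day 5 -0.10. Over all genes, median centring put 13.7% lower and 11.5% higher by that size and 7.76% with KO below L/L, with a day 5 median of -0.0505. Cyclic loess gave 3 members higher by that size (7.89%, against 13.8% of all genes) and 5 with KO below L/L (13.2%, against 7.17%). Its day 5 median was -0.0459 for the family and -0.00322 for all genes. At 0.32 in place of 1.5-fold, 4 members were lower on day 5 (10.5%, against 9.82% of all genes) and 5 higher (13.2%, against 15.5%). On day 3, 3 members were lower by that size, and the share of all genes was not counted for that day. With the mean of all probe sets, or without x and s probe sets, 1 member had KO below L/L. For these settings and for the fold counts with an offset, shares of all genes were not counted. Those carrier counts therefore have no background to be read against. An offset of 32 left 0 members 1.5-fold and 3 members 0.32 or more higher on day 5, and it put 1 member past the test of change with day, as did an intensity-dependent prior (1, Slc25a22). The mean difference of Slc25a33 was -0.13 without day 5. Genes past the test of change with day numbered 160, against 0 with no filter, 275 with the 60th percentile filter, 549 with the offset, 531 with the prior and 63 with days by rank. Those past the 3-day test numbered 3, against 1 with the mean of probe sets, 1 without day 2, 0 without day 3 and 2 without day 5 or with no filter. Of values for single carriers under an alternative, 348 kept their direction and call or stayed within their spread, 3 moved beyond it, 2 newly passed and 1 turned; of list medians 44 stayed and 10 moved, of all-gene counts 15 and 8, and of carrier counts and medians 117 and 21. The 3-day fit pairs the arrays by day; without the day term it called 0 carriers and 3 genes. The number of arrays limits the precision.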
